A study of Homo sapiens with 6 samples.

Results

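The genes described here are 10 components and feedback targets of the canonical WNT pathway, *CTNNB1*, *APC*, *AXIN2*, *LEF1*, *TCF7*, *TCF7L2*, *NKD1*, *RNF43*, *ZNRF3* and *LGR4*. They were chosen by symbol, and all 10 were found among the 22807 genes of the deposited table. The cells were MDA-MB-453, a HER2+ line derived from a breast cancer, profiled by RNA sequencing. They received *DUSP6* siRNA in 3 libraries and scrambled siRNA in 3 libraries, and the comparison asks what the loss of the ERK phosphatase DUSP6 does to gene expression. Both groups share the same line, of WT genotype, and the same growth medium. The study describes 3 different siRNAs against *DUSP6* and 3 different scrambled controls, and the sources used here do not tie them to single libraries. Nothing in the labels says that the libraries of a group came from separate cultures. The p-values therefore measure the spread between these libraries, which may be technical or may include differences between siRNAs.

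In the absence of a WNT signal, beta-catenin, the product of *CTNNB1*, is bound by a destruction complex built on APC and the AXIN scaffolds, is phosphorylated and is degraded. WNT ligands acting through Frizzled and LRP receptors stop this, and beta-catenin then enters the nucleus and activates genes together with the DNA-binding factors of the TCF/LEF family. Several of these target genes restrain the pathway in turn: *AXIN2* restores the destruction complex, *NKD1* acts on Dishevelled, and *RNF43* and *ZNRF3* encode ubiquitin ligases that take Frizzled receptors off the cell surface. LGR4 is a receptor for R-spondins, the secreted proteins that block RNF43 and ZNRF3.

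The values are CPM scaled by the TMM method, called normalized values here. This scaling is meant to adjust for depth and composition, and the size of some changes depended on the normalization. Divided by what 1 read is worth in its library, each value came out whole (within 0.001 of a read), and the totals recovered in this way were between 45546981 and 85729785 reads. The 10 most abundant genes took 16.9% and 16.4% of the reads in scrambled siRNA replicates 1 and 2 and from 10.4% to 10.9% in the other 4 libraries, so scrambled siRNA replicate 3 stands apart from the other scrambled siRNA libraries in this measure. The targeted gene *DUSP6* fell from 144 ± 55.7 (SD, n = 3) to 33.04 ± 7.68 (SD, n = 3), without overlap. Of 8 luminal and apocrine markers, 7 (87.5%) were lower with *DUSP6* siRNA, against 24.7% of all genes tested. The summed value of the 8 went from between 5041 and 6125 to between 3254 and 3596. The summed value of 4 basal epithelial markers was between 8.75 and 16.4 with scrambled siRNA and between 14.1 and 20.0 with *DUSP6* siRNA, with *KRT17* higher, though it passed the filter only through its *DUSP6* siRNA libraries, and *TP63* lower. Of 4 fibroblast markers in the table only *COL1A1* passed the filter, and it was higher, while *LUM* was at 0 in 5 of the 6 libraries. The leukocyte markers summed to at most 0.162 in any library and the endothelial markers to at most 0.422. All 10 interferon-stimulated genes in a short list were higher, against 19.7% of all genes tested. Of these, *OAS2*, *MX1* and *IFI44L* passed the filter only through the *DUSP6* siRNA libraries. The summed value of the 10 was between 17.6 and 45.3 in scrambled siRNA libraries and between 2153 and 2947 in *DUSP6* siRNA libraries. The part of these shifts in the values of the WNT genes was not tested.

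In the scrambled siRNA libraries the 10 genes spanned a wide range of levels. Per kilobase of the MANE Select transcript, *CTNNB1* was the highest, with a normalized value of 48.6 ± 6.64 (SD, n = 3). It was followed by *APC* with 10.8 ± 2.13, *TCF7L2* with 7.38 ± 1.39, *LGR4* with 6.44 ± 0.718 and *RNF43* with 5.67 ± 0.646, and neighbors among these 4 overlapped in this order. *ZNRF3*, with 4.51 ± 0.706 per kilobase, and *NKD1*, with 4.28 ± 0.314, overlapped each other. The models over which the authors counted reads were not used here, and the level of *NKD1* per kilobase rests on a transcript of 17039 bases. *AXIN2*, with 0.484 ± 0.10 per kilobase, *TCF7*, with 0.272 ± 0.0727, and *LEF1*, with 0.0948 ± 0.0515, were lower than all the others and did not overlap one another. *AXIN2*, the most widely used transcriptional readout of the pathway, was present at a low level in these cells. The same genes held the first 4 places after *DUSP6* siRNA, while *RNF43* went from the fifth to the seventh place.

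**Figure D1:**
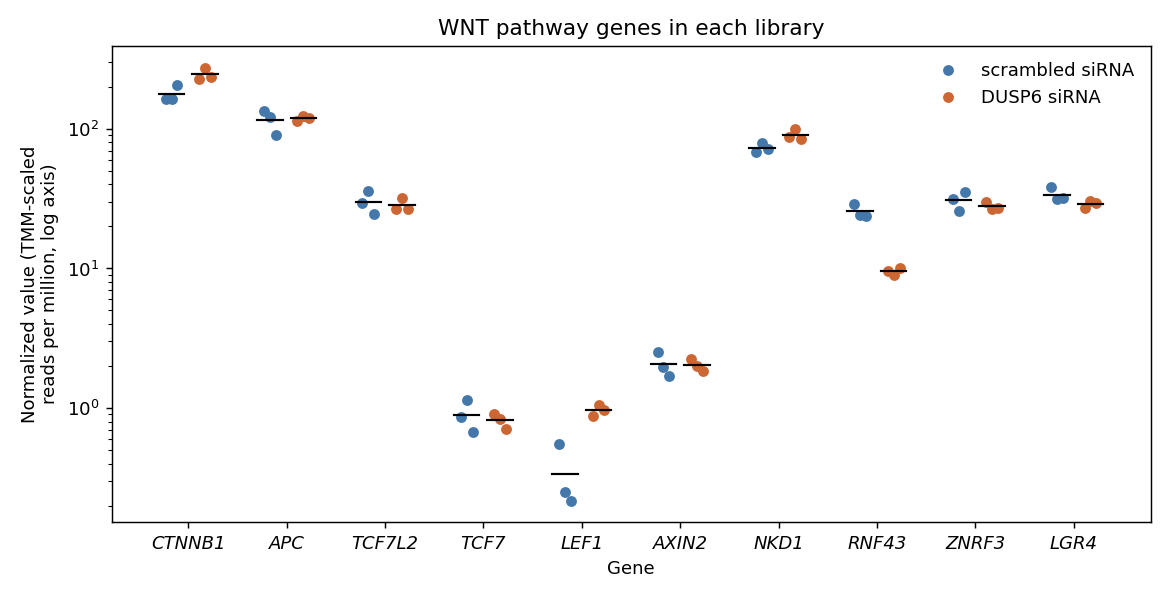
Normalized values (TMM-scaled CPM, log axis) of the 10 WNT genes, with a point for each of the 3 scrambled siRNA and 3 *DUSP6* siRNA libraries and a bar at each group mean. *RNF43* lies between 23.9 and 29.0 with scrambled siRNA and between 9.0 and 10.1 with *DUSP6* siRNA, *CTNNB1*, *NKD1* and *LEF1* lie higher with *DUSP6* siRNA without overlap, *LGR4* lies slightly lower without overlap, and the groups of the other 5 genes overlap.

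With *DUSP6* siRNA, *RNF43* was lower, *CTNNB1* and *NKD1* were higher, and the other 5 of the 8 genes that could be tested did not pass the test. The test was limma, applied to log2(value + 1) of the 12862 genes whose mean reached 1, and a gene was called at a Benjamini-Hochberg adjusted p under 0.05. *LEF1* and *TCF7* were under that filter and are described by their reads. Of the 8 WNT genes 25% were called higher, 12.5% lower and 37.5% in either direction, where the shares over the 12862 genes were 19.7%, 24.7% and 44.5%. The groups did not overlap for 4 of the 8 genes, 2 of them higher and 2 lower, or 50% against 57.8% of the 12862 genes (26.7% higher and 31.1% lower). With *LEF1* and *TCF7* included this was so for 5 of 10 genes, against 42.4% of the whole table. The share of WNT genes that changed was near the background, and the changes are those of single genes. The median log2 fold change was -0.04 for the 8 genes and -0.01 for all genes tested.

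The stretches upstream of the annotated starts of *RNF43*, which fell, and *CTNNB1*, which rose, are shown so that the called member with the largest fall and the one with the largest rise can be seen with their regulatory DNA. They are from RefSeq on GRCh38.p14, on the strand of the gene and 5′ to 3′, cut where an annotated exon begins, and capitals mark a motif match.
*RNF43*, upstream start, chr17:58417596-58417784, minus strand: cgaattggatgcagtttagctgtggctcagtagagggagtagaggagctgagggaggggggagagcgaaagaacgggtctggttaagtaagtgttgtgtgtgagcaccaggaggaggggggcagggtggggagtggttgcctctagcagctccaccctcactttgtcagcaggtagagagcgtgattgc
*RNF43*, downstream start, chr17:58402722-58402971, minus strand: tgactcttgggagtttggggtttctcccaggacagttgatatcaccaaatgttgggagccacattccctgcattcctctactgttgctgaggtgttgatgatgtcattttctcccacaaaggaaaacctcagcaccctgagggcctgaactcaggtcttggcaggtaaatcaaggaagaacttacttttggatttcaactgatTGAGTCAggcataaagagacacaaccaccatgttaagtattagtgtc
*CTNNB1*, chr3:41199255-41199388, plus strand: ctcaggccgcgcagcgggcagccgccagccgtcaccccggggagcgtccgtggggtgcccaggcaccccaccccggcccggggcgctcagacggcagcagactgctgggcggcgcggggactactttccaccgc

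RefSeq windows were at hand for 7 of the 10 genes (*CTNNB1*, *LEF1*, *APC*, *TCF7*, *TCF7L2*, *LGR4* and *RNF43*), 12 windows in all. The 250 bases before each start were searched on both strands for a TCF/LEF motif (CTTTGAT), an AP-1 motif (TGANTCA), an ETS motif (CCGGAAGT) and the core of the interferon response element, ISRE (GAAA, any 2 bases, GAAA). None of these motifs contains another. The downstream start of *RNF43* held an AP-1 match, TGAGTCA, that begins at base -47, and 1 start of *TCF7* held an ETS match, ACTTCCGG on the strand of the gene, that begins at base -50. No other window held a match. Of 35116 windows of this length, 2.26% held the TCF/LEF motif, 6.57% the AP-1 motif, 3.42% the ETS motif and 3.02% the ISRE core. A match describes the letters and not the binding of a factor.

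*RNF43* encodes a membrane ubiquitin ligase that marks Frizzled receptors for degradation. Scrambled siRNA replicates 1 to 3 had normalized values of 29.0, 24.0 and 23.9, and the *DUSP6* siRNA replicates had 9.58, 9.0 and 10.1. Every *DUSP6* siRNA library lay below 0.5 times the lowest scrambled siRNA library, and the *DUSP6* siRNA libraries were close to one another. *RNF43* fell on average from 25.6 ± 2.92 (SD, n = 3) to 9.56 ± 0.545 (SD, n = 3), which is 2.68-fold lower. The log2 fold change was -1.33 (standard error 0.11, 95% confidence interval -1.59 to -1.07, limma adjusted p = 4.70e-05), larger in size than for 96.8% of all genes tested. Leaving out each library in turn gave -1.38 to -1.24, with all 6 fits called. *RNF43* has the Entrez identifier 54894 and spans 58352500 to 58417534 on chromosome 17 (GRCh38). In the GENCODE annotation, 5.45% of its exon sequence is shared with *TSPOAP1-AS1*, an antisense gene also in the table, and 69.0% with any annotated gene. The counting is not stated to use strand, so reads in the shared stretches cannot be told apart and the value of *RNF43* is uncertain.

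*ZNRF3*, the close relative of *RNF43* with the same known task, did not pass the test. It had normalized values of 31.3, 25.9 and 35.6 in the scrambled siRNA libraries and 30.1, 26.6 and 27.2 in the *DUSP6* siRNA libraries. The groups overlapped, and the log2 fold change was -0.13 (95% confidence interval -0.42 to 0.15, limma adjusted p = 0.416). Both genes can be compared within each library, where the scaling between libraries cancels. The log2 ratio of *RNF43* to *ZNRF3* was -0.11, -0.11 and -0.57 with scrambled siRNA (replicates 1 to 3) and -1.65, -1.56 and -1.43 with *DUSP6* siRNA. The groups were separate, with a lower ratio in each *DUSP6* siRNA library and a difference between the means of -1.28. The pair was chosen after the values had been seen, so the ratio mostly restates the fall of *RNF43*. The two-sided exact permutation test gave p = 0.1, which 3 libraries against 3 cannot go below. *LGR4*, the R-spondin receptor, had values of 38.1, 31.2 and 32.0 with scrambled siRNA and 27.3, 30.5 and 29.4 with *DUSP6* siRNA. All 3 *DUSP6* siRNA libraries lay below the lowest scrambled siRNA library by a small margin, and the log2 fold change of -0.21 was not called (95% confidence interval -0.45 to 0.04, limma adjusted p = 0.152).

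**Figure D2:**
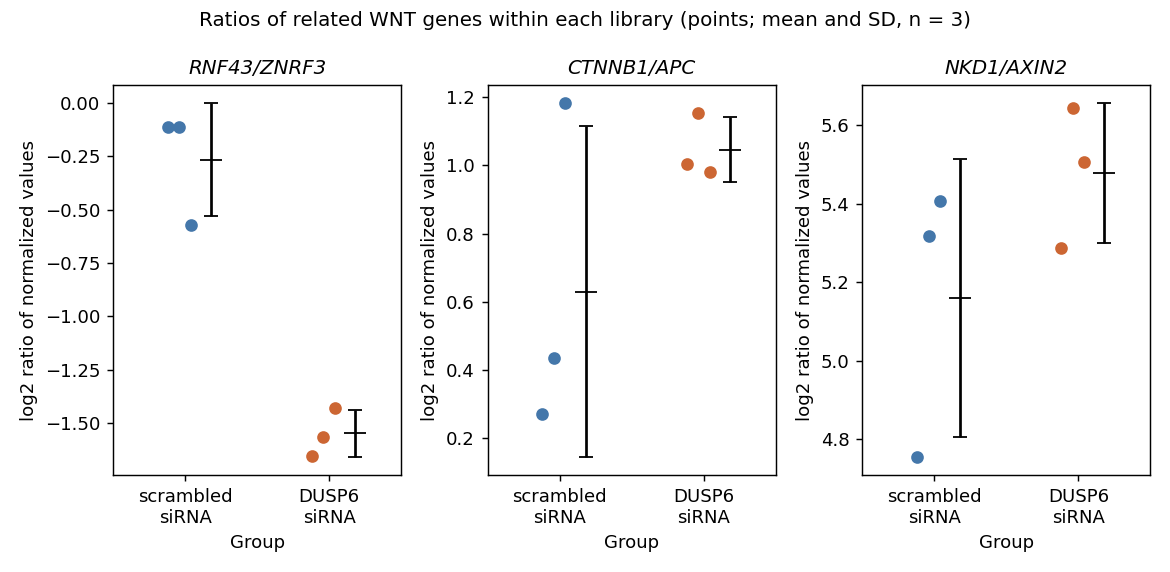
The log2 ratio of normalized values for *RNF43* to *ZNRF3*, *CTNNB1* to *APC* and *NKD1* to *AXIN2* in each library, with the mean and SD of 3 libraries beside the points, each panel on its own axis. Only the first ratio separates the groups. For *CTNNB1* to *APC*, scrambled siRNA replicate 3 at 1.18 lies above all 3 *DUSP6* siRNA libraries.

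*CTNNB1*, which encodes beta-catenin, had normalized values of 163, 165 and 206 with scrambled siRNA and 228, 275 and 236 with *DUSP6* siRNA. The lowest *DUSP6* siRNA library was above the highest scrambled siRNA library, although scrambled siRNA replicate 3 came close to it. The mean rose from 178 ± 24.3 (SD, n = 3) to 247 ± 25.2 (SD, n = 3), which is 1.38-fold higher. The log2 fold change was 0.47 (standard error 0.12, 95% confidence interval 0.20 to 0.74, limma adjusted p = 0.0117). The call was lost without *DUSP6* siRNA replicate 2, the highest library, at a log2 fold change of 0.39 (adjusted p = 0.0577), and without scrambled siRNA replicate 3 the log2 fold change was 0.58. *CTNNB1* has the Entrez identifier 1499 and spans 41199505 to 41240443 on chromosome 3, and its exons overlap those of no other annotated gene.

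*APC*, the tumor suppressor of the destruction complex, had values of 135, 122 and 90.7 with scrambled siRNA and 114, 124 and 120 with *DUSP6* siRNA. The *DUSP6* siRNA libraries lay within the range of the scrambled siRNA libraries, with a log2 fold change of 0.06 (95% confidence interval -0.26 to 0.37, limma adjusted p = 0.764). In scrambled siRNA replicate 3, *CTNNB1* was the highest and *APC* the lowest of the scrambled siRNA libraries. The log2 ratio of *CTNNB1* to *APC* was 0.27, 0.43 and 1.18 with scrambled siRNA (replicates 1 to 3) and 1.00, 1.15 and 0.98 with *DUSP6* siRNA. The groups overlapped in this ratio (difference 0.42, two-sided exact permutation test, p = 0.4), so a rise of *CTNNB1* relative to *APC* was not shown.

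Among the feedback targets, *NKD1* had normalized values of 68.3, 78.7 and 71.6 with scrambled siRNA and 87.7, 99.6 and 84.2 with *DUSP6* siRNA. The groups did not overlap, and the mean was 72.9 ± 5.35 (SD, n = 3) against 90.5 ± 8.06 (SD, n = 3), or 1.24-fold higher. The log2 fold change was 0.31 (standard error 0.10, 95% confidence interval 0.08 to 0.53, limma adjusted p = 0.0331). This call was the weakest of the 3, since it held in only 2 of 6 fits with 1 library removed, with adjusted p-values between 0.0225 and 0.131. It was lost without scrambled siRNA replicate 1 and without each of the *DUSP6* siRNA libraries. *AXIN2* had values of 2.53, 1.97 and 1.69 with scrambled siRNA and 2.24, 1.99 and 1.85 with *DUSP6* siRNA. These came from between 103 and 170 reads per library, and the means of 2.06 ± 0.428 and 2.03 ± 0.198 (SD, n = 3) differed by a log2 fold change of -0.01 (95% confidence interval -0.30 to 0.29, limma adjusted p = 0.965). The *DUSP6* siRNA libraries lay within the scrambled siRNA range. Other annotated genes share 25.3% of the exon sequence of *AXIN2* and 28.6% of that of *DUSP6*, though no gene in the table does. The log2 ratio of *NKD1* to *AXIN2* was 5.16 ± 0.354 with scrambled siRNA and 5.48 ± 0.179 with *DUSP6* siRNA (SD, n = 3), with overlap (two-sided exact permutation test, p = 0.3).

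The factors that carry beta-catenin to DNA did not move alike. *TCF7L2*, the main TCF/LEF gene of these cells, had values of 29.5, 36.0 and 24.7 with scrambled siRNA and 26.5, 31.9 and 26.5 with *DUSP6* siRNA, all within the scrambled siRNA range. Its log2 fold change was -0.07 (95% confidence interval -0.40 to 0.25, limma adjusted p = 0.703). *TCF7*, a TCF/LEF factor best known from T cells, was covered by 58, 60 and 56 reads with scrambled siRNA and by 45, 68 and 46 reads with *DUSP6* siRNA. Its normalized values of 0.863, 1.15 and 0.675 overlapped with 0.910, 0.832 and 0.711.

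*LEF1*, a TCF/LEF factor that is itself a WNT target in many cells, was covered by 37, 13 and 18 reads with scrambled siRNA and by 43, 86 and 63 reads with *DUSP6* siRNA. The normalized values were 0.550, 0.249 and 0.217 against 0.869, 1.05 and 0.973, and the lowest *DUSP6* siRNA library was above the highest scrambled siRNA library. The mean was 2.85-fold higher, at 0.339 ± 0.184 against 0.965 ± 0.0914 (SD, n = 3). Without the filter, limma called *LEF1* higher, with a log2 fold change of 0.56 (95% confidence interval 0.33 to 0.79, adjusted p = 0.00643), where 13.1% of all 22807 genes were called higher and 27.1% in either direction. This scale understates the change of so low a gene. On the reads themselves, edgeR gave a log2 fold change of 1.51 (adjusted p = 0.00128), where 14.2% of all genes were called higher and 29.8% in either direction. DESeq2 gave 1.51 (adjusted p = 8.70e-04), where 18% of the genes with an adjusted p were called higher. *LEF1* has the Entrez identifier 51176 and spans 108047548 to 108168932 on chromosome 4, and 5.20% of its exon sequence is shared with *LEF1-AS1*, which had no read in 5 of the 6 libraries. The level stayed low in absolute terms. Per kilobase, *LEF1* made up between 0.717% and 1.95% of the summed level of *TCF7L2*, *TCF7*, *LEF1* and *TCF7L1* in the scrambled siRNA libraries and between 3.23% and 3.63% in the *DUSP6* siRNA libraries, while *TCF7L2* made up between 90.8% and 93.7% and between 86.4% and 88.0%. *TCF7L1* had a larger share than *LEF1* in every library. Its share gained more in percentage points, from between 2.19% and 4.89% to between 5.81% and 6.82%, while its mean value was 1.78-fold higher. *TCF7L1* passed the filter only through its *DUSP6* siRNA libraries, and limma did not call it (log2 fold change 0.48, adjusted p = 0.0554). With no filter, edgeR gave *TCF7L1* 0.87 (adjusted p = 0.0425) and DESeq2 gave 0.84 (adjusted p = 0.0564). *TCF7* made up between 3.17% and 3.60% and between 2.85% and 3.67%. *TCF7L1* is described after its values were seen.

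**Figure D3:**
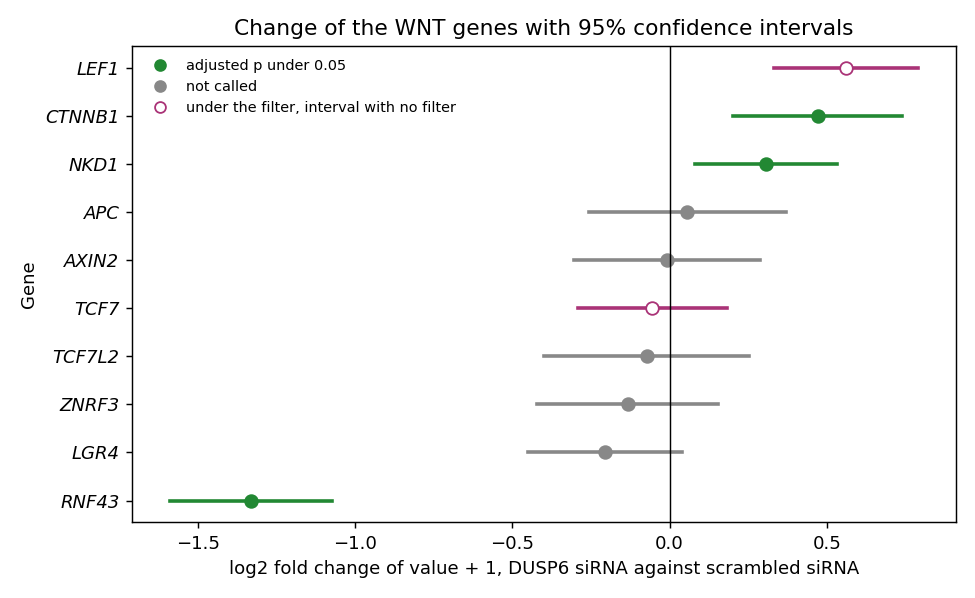
Log2 fold change of value + 1 for each of the 10 WNT genes, *DUSP6* siRNA against scrambled siRNA (3 libraries each), with 95% confidence intervals. Filled points are from the limma fit of 12862 genes, and the open points of *LEF1* and *TCF7* have their interval from the fit with no filter. *RNF43* at -1.33 lies far from the others, *CTNNB1*, *NKD1* and *LEF1* have intervals above 0, and the other 6 intervals include 0.

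The other genes of the pathway were grouped in 8 lists by role, with 118 genes in all. Of these, 108 were in the table and 72 could be tested, of which 14 were higher and 20 lower with *DUSP6* siRNA. These shares of 19.4% and 27.8% were close to the 19.7% and 24.7% of all genes, and the median log2 fold change was -0.01, the same as for all genes when rounded. As for the 10 genes above, the lists therefore hold changes of single genes in both directions.

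Among the WNT ligands, 5 of the 15 in the table could be tested. Of these, 1 was higher (20.0%) and 3 lower (60.0%), against 19.7% and 24.7% of all genes tested, and the median log2 fold change was -0.48. These shares rest on only 5 genes and depend on the filter. Without the filter, 3 of the 15 ligands were called higher (*WNT9A*, *WNT5B* and *WNT11*), where 13.1% of all 22807 genes were. In that fit *WNT7B*, *WNT8B* and *WNT10B* were called lower, where 14% of all genes were. *WNT5B* and *WNT11* had at most 41 reads in any library. *WNT7B* fell from 45.1 ± 4.18 to 23.3 ± 3.61 (SD, n = 3) (log2 fold change -0.93, limma adjusted p = 6.19e-04). *WNT10B* fell from 3.73 ± 1.16 to 1.96 ± 0.232 (SD, n = 3), and this call was lost in the fits without *DUSP6* siRNA replicate 2 and without replicate 3. *WNT9A* rose from 9.54 ± 1.60 to 20.2 ± 2.09 (SD, n = 3) (log2 fold change 1.02, limma adjusted p = 5.81e-04). For none of *WNT7B*, *WNT10B* and *WNT9A* did the groups overlap.

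Of 13 receptor genes tested, 5 were higher (38.5%) and 2 lower (15.4%), against 19.7% and 24.7% of all genes tested, with a median log2 fold change of 0.03. *FZD4*, a Frizzled receptor, had values of 32.8, 39.0 and 33.7 with scrambled siRNA and 73.1, 75.2 and 77.5 with *DUSP6* siRNA. All *DUSP6* siRNA libraries were well above the scrambled siRNA libraries, and the log2 fold change was 1.08 (standard error 0.10, limma adjusted p = 5.83e-05), but *PRSS23* shares 18.9% of its exon sequence, so its value is uncertain. *ROR1*, a receptor of non-canonical WNT signals, rose from 1.31 ± 0.303 to 3.89 ± 0.415 (SD, n = 3, log2 fold change 1.09), while its relative *ROR2* fell from 19.5 ± 0.592 to 14.1 ± 0.853 (SD, n = 3, log2 fold change -0.45). *FZD8* (log2 fold change 1.07), *FZD3* (0.66) and *FZD7* (0.35), named after their values were seen, were also higher. *FZD3* passed the filter only through its *DUSP6* siRNA libraries, and the call of *FZD7* was lost with no filter (limma adjusted p = 0.0513). *FZD1* was lower (-0.28), a call that edgeR did not make. The number of receptor genes called higher was 4 with no filter and 3 when the filter was raised to 10. The co-receptor genes *LRP5* and *LRP6* both had a log2 fold change of -0.02 and were not called.

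Few genes of ligand secretion and of the secreted inhibitors were expressed. *PORCN*, which encodes the acyltransferase that modifies WNT ligands, rose from 5.02 ± 0.983 to 8.96 ± 0.935 (SD, n = 3, log2 fold change 0.74, limma adjusted p = 0.00360), and *WLS*, the only other tested gene of its list of 9, was not called. Of the 18 inhibitor genes, 15 were in the table and 13 of these were under the filter. *KREMEN2*, a receptor for DKK inhibitors that shares 15.3% of its exon sequence with *PKMYT1*, fell from 11.9 ± 3.37 to 6.00 ± 1.23 (SD, n = 3), and *KREMEN1* was not called.

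Among 16 tested genes of the destruction complex and of Dishevelled, 3 were higher and 3 lower (18.8% each, against 19.7% and 24.7% of all genes tested). *TNKS*, which encodes a poly-ADP-ribosylating enzyme that marks AXIN for degradation, rose by a log2 fold change of 0.47 and the kinase gene *CSNK1D* by 0.40. *DVL3* had a log2 fold change of -0.56 and *FRAT2*, whose product binds GSK3, one of -0.41, both called. *GSK3B* was also lower (log2 fold change -0.32, limma adjusted p = 0.0178). *DVL2*, a relative of *DVL3*, was higher (log2 fold change 0.25, limma adjusted p = 0.0466), but edgeR with no filter did not call *DVL2* (adjusted p = 0.101). *AXIN1* had values of 51.0, 51.3 and 51.8 with scrambled siRNA and 57.7, 57.9 and 54.4 with *DUSP6* siRNA. The groups of *AXIN1* did not overlap, but the log2 fold change of 0.14 was not called (95% confidence interval -0.05 to 0.33, limma adjusted p = 0.201).

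**Figure D4:**
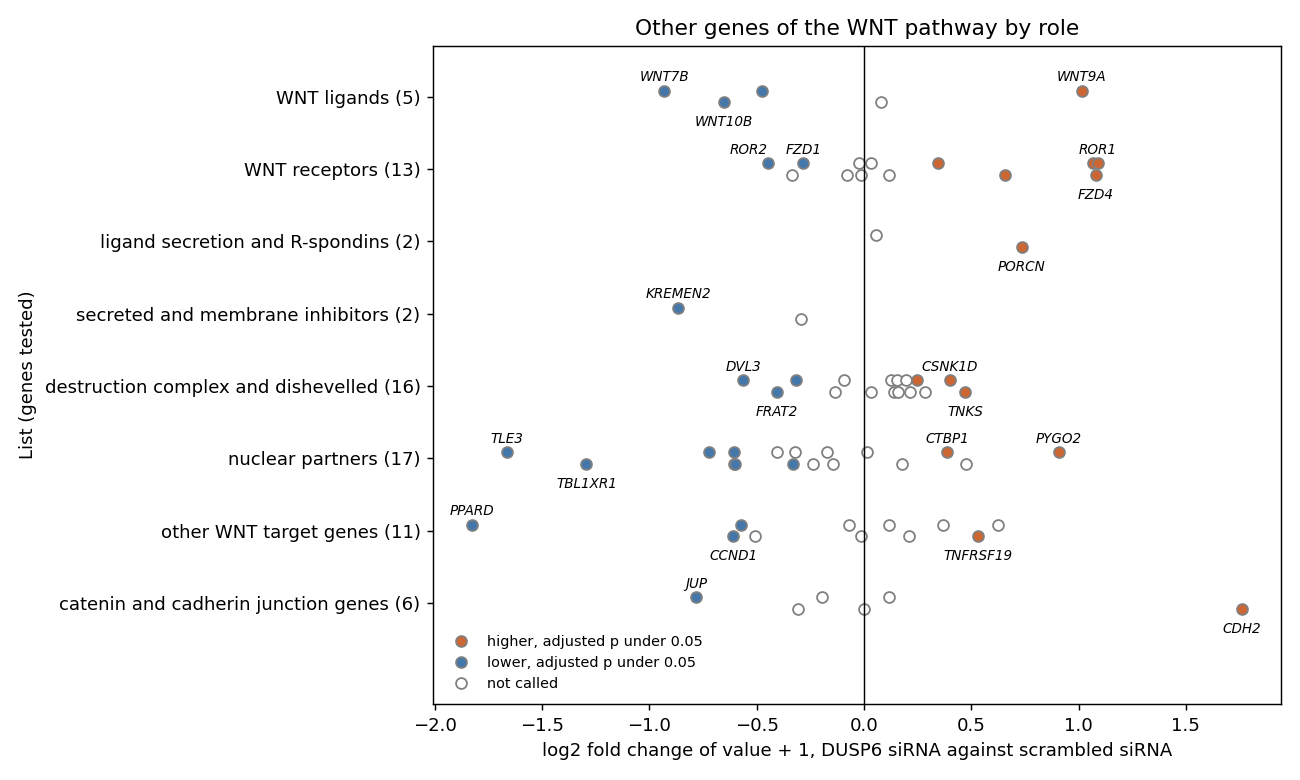
Log2 fold change of value + 1 of the 72 tested genes in 8 lists of the WNT pathway, 1 point for each gene, colored where the limma adjusted p was under 0.05 (14 higher, 20 lower), with the genes chosen by the naming rule labelled. The lists hold changes in both directions, and the largest decreases are *PPARD* at -1.83 and *TLE3* at -1.67.

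The nuclear partners had more decreases than increases, with 7 of 17 lower (41.2%, against 24.7% of all genes) and 2 higher (11.8%, against 19.7%), and a median log2 fold change of -0.32. *TLE3*, a co-repressor of the Groucho family that binds TCF/LEF factors, had values of 99.4, 83.4 and 75.4 with scrambled siRNA and 30.2, 24.0 and 25.0 with *DUSP6* siRNA. All *DUSP6* siRNA libraries lay far below the scrambled siRNA libraries, and the log2 fold change was -1.67 (standard error 0.13, limma adjusted p = 2.92e-05). *TBL1XR1*, which bridges co-repressor complexes and beta-catenin, fell from 279 ± 17.9 to 113 ± 9.01 (SD, n = 3, log2 fold change -1.29, limma adjusted p = 2.14e-05). The other lower genes were *BCL9* (log2 fold change -0.72), *BCL9L* (-0.60), *CREBBP* (-0.60), *EP300* (-0.61) and *SMARCA4* (-0.33), all called without overlap. *PYGO2*, a co-activator that binds BCL9, and *CTBP1*, a co-repressor, were called higher (log2 fold changes 0.91 and 0.39), but both calls were lost in several fits that left out 1 library, and *PYGO2* had 38.9, 81.2 and 110 in the scrambled siRNA libraries, a spread wider than the distance of the highest of them from the *DUSP6* siRNA libraries. *SHC1* shares 9.14% of the exon sequence of *PYGO2*, and *CTBP1-AS* and *CTBP1-DT* share 14.3% of that of *CTBP1*, so both values are uncertain.

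Of 11 other target genes tested, 1 was higher (9.09%) and 3 lower (27.3%), against 19.7% and 24.7% of all genes tested. The number higher depended on the processing. It was 3 with no filter, under quantile normalization, with the replicate block and with DESeq2. It was 2 with edgeR and under median-of-ratios rescaling, and 0 when the filter was raised to 10. *SOX4* and *JAG1* were higher without overlap but were not called (limma adjusted p = 0.0501 and 0.0624). *PPARD*, a nuclear receptor gene, had the largest decrease of the 72 genes, from 228 ± 31.4 to 63.2 ± 7.46 (SD, n = 3, log2 fold change -1.83, limma adjusted p = 1.47e-05). *CCND1*, which encodes cyclin D1, fell from 349 ± 31.0 to 228 ± 14.0 (SD, n = 3, log2 fold change -0.61), and *LTO1* shares 10.4% of its exon sequence. The 1 higher gene, *TNFRSF19*, had 0.688 ± 0.214 with scrambled siRNA and 1.43 ± 0.159 with *DUSP6* siRNA (SD, n = 3), and it passed the filter only through the group in which it was high. Of the genes that place beta-catenin and its relatives at cell junctions, *CDH2*, which encodes N-cadherin, rose from 8.95 ± 2.66 to 32.2 ± 4.22 (SD, n = 3, log2 fold change 1.76, limma adjusted p = 1.32e-04). *JUP*, which encodes gamma-catenin, fell from 250.1 ± 42.6 to 144 ± 7.35 (SD, n = 3, log2 fold change -0.78, limma adjusted p = 0.00119), and *CDH1*, which encodes E-cadherin, was not called, with a log2 fold change of 0.00 when rounded.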

How the data were processed

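RNA from 6 libraries of MDA-MB-453 cells was sequenced. With Rsubread, the authors mapped reads to hg38 and counted them over RefSeq gene models. They deposited 1 normalized signal value per gene and library. No normalization is named, but edgeR is in the submitters' processing notes, and the values equalled CPM on edgeR's TMM-scaled library size of the recovered reads (1 read is worth between 0.0121 and 0.0202).

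limma 3.58.1 in R 4.3.3 (trend, Benjamini-Hochberg) was run on log2(value + 1) for 12862 genes, so fold changes of low genes are understated. edgeR 4.0.16 and DESeq2 1.42.0 were run on recovered reads. The filtered fits of all were tried on simulated data with far fewer changed genes than were called here. The trial did not cover the fits with no filter. Lengths and exon overlaps came from GENCODE v44, and positions and promoters from RefSeq, both on GRCh38.

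The members and lists were chosen with earlier results of these data known. Named from each list were up to 2 called genes with the largest rise and 2 with the largest fall without overlap, and the 3 genes whose pattern was most like that of the called member that fell or rose most. The ratios, the motifs and other genes named with values or calls (*FZD3*, *FZD7*, *FZD8*, *AXIN1*, *LRP5*, *LRP6*, *CDH1*, *WLS*, *KREMEN1*, *SOX4*, *JAG1*, *WNT5B*, *WNT8B*, *WNT11*, *GSK3B*, *DVL2*, *BCL9*, *BCL9L*, *CREBBP*, *EP300*, *SMARCA4*) were chosen after the values had been seen. The result of 1 marker gene is not reported here.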

Additional observations from a re-analysis of the deposited data

How the results depend on the processing

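The falls of *DUSP6* and *RNF43* and the rises of *CTNNB1* and *NKD1* kept their direction and call with a pseudocount of 0.1, with no filter, with a mean value of at least 10, under median-of-ratios rescaling and quantile normalization, without a trend, and with edgeR and DESeq2. In the fits that each left out 1 library, *CTNNB1* ranged from 0.39 to 0.58 and *NKD1* from 0.24 to 0.36, and the number of WNT genes called higher ranged from 0, without *DUSP6* siRNA replicate 2, to 2. *LEF1*, under the filter, was called with no filter (0.56), with edgeR (1.51) and DESeq2 (1.51) on all reads, both chosen after seeing the data, and at 0.50 to 0.67 when 1 library was left out. Over all genes, 1639 instead of 2540 were higher with a mean value of at least 10, since fewer were tested, and between 1574 and 3183 when 1 library was left out. Quantile normalization gave 2958 higher and 2887 lower, against 2540 and 3179. Under it the log2 fold change was 0.68 instead of 0.47 for *CTNNB1* and 0.41 instead of 0.31 for *NKD1*. *AXIN2* was at -0.13 instead of -0.01, still not called, and *RNF43* was at -1.34 instead of -1.33. The replicate block changed no call of the 10 genes and gave 2495 higher and 3096 lower. Deviations from the group mean had a Pearson r over genes of 0.01, 0.09 and -0.08 for same-numbered libraries. For differently numbered libraries it was between -0.09 and 0.13. With 3 libraries in each group, these values cannot settle whether the numbers pair the libraries. Of the 22 named pathway genes, 2 (*FZD1* and *PYGO2*) lost their call in 4 fits with all libraries, and 4 (*FZD1*, *PYGO2*, *WNT10B*, *CTBP1*) in 13 fits that left out 1. Depth limits *LEF1* and *TCF7* most, with 13 to 86 reads per library.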

Other observations

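The genes whose pattern over the 6 libraries was most like that of *RNF43* were *PTP4A2* (Pearson r 1.00 when rounded, log2 fold change -0.86), *PICALM* (-0.41) and *MPZL1* (-0.54), all lower with *DUSP6* siRNA. Those most like *CTNNB1* were *RETSAT* (log2 fold change 0.34), *ARFGAP2* (0.42) and *ATG7* (0.48), all higher. With 6 libraries in a pair of groups, 1456 genes had a correlation above 0.95 with *RNF43* and 506 with *CTNNB1*. These likenesses are a description only.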
